A study of Homo sapiens with 32 samples.

Results

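MHC class I presentation was followed through 9 genes, listed by symbol: the heavy chains HLA-B, HLA-C, HLA-E and HLA-F, the light chain B2M, the peptide transporter genes TAP1 and TAP2, the loading factor gene TAPBP and the transcriptional activator gene NLRC5. All 9 were found among the 28278 gene symbols of the count tables, and all 9 among the genes of the knockdown table. RNA-seq covered 32 libraries of 3 lines of Ewing sarcoma, a tumour of bone and soft tissue driven by a fusion such as EWS::FLI1. In A673 cells, experiments 1 and 2 compared STAG2 KO clones (2 and 3 libraries) with STAG2-proficient controls, which in each experiment were 2 libraries of a WT clone and 1 of the parental line. Experiment 2 also held 3 EZH2 KO and 3 SUZ12 KO clones, and experiment 3 held 3 STAG1 KO libraries with 1 library each of the WT clone and the parental line. The WT clone and every edited A673 clone carry a Cas9 gene at AAVS1 whose expression is induced by a drug, and the parental line does not. Experiment 4 compared 3 libraries of A673 cells treated with an siRNA against STAG2 with 3 mock-transfected controls. In SK-N-MC cells a STAG2 KO clone was set beside the unedited line, and in A4573 cells, which lack STAG2 protein as they come, a clone with STAG2 knocked in (KI) was set beside the line labelled WT, with 1 library each. A KO library is 1 clone, so a difference between libraries of a group is also a difference between clones.

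Class I molecules carry peptides cut from proteins of the cell to its surface, where cytotoxic T cells read them. The proteasome and aminopeptidases cut the peptides, TAP1 and TAP2 pump them into the endoplasmic reticulum, and tapasin, the product of TAPBP, helps to load them onto a heavy chain paired with beta-2 microglobulin, the product of B2M. HLA-B and HLA-C are classical heavy chains, while HLA-E, a ligand of NK cell receptors, and HLA-F are nonclassical. NLRC5 assembles with RFX, NFY and CREB family factors at the promoters of these genes, and interferons raise them in part through interferon regulatory factors. Ewing sarcoma cells are known for low class I levels. STAG2 and STAG1 are alternative subunits of cohesin, the ring complex that forms chromatin loops, and EZH2 and SUZ12 are subunits of PRC2, the complex that places H3K27me3 and represses genes.

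The promoters of 5 members are shown because class I genes are known to be read together through short sites in them. Sequences are from RefSeq on GRCh38.p14, which had a window for 7 of the 9 genes and none for HLA-E and NLRC5. Each is written 5′ to 3′ on the gene's own strand, from 200 bases before the annotated start to the base before it. Capitals mark CCAAT (the NFY box, or ATTGG on the other strand), TGACG (a CREB-type core), GAAANNGAAA and GAANNGAAA (GAAA repeats of the kind bound by interferon regulatory factors), on either strand.
HLA-B (chr6:31357180-31357379, minus strand): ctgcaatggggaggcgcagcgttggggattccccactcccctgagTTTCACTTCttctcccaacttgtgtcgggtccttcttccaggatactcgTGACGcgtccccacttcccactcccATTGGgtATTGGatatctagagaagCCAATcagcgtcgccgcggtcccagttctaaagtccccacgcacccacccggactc
HLA-C (chr6:31272093-31272292, minus strand): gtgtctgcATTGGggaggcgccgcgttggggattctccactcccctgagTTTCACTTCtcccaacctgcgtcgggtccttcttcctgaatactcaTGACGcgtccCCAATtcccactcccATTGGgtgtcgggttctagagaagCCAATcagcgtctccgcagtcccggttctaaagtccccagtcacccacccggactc
HLA-F (chr6:29723234-29723433, plus strand): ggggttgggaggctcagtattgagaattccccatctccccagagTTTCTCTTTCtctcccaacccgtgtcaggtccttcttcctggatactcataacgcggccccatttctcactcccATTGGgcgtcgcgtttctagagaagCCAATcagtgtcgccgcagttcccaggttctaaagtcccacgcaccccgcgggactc
B2M (chr15:44711317-44711516, plus strand): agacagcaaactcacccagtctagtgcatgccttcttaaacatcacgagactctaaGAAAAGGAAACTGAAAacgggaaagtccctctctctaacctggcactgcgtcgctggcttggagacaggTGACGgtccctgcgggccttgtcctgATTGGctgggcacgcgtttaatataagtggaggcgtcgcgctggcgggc
TAP1 (chr6:32853705-32853904, minus strand): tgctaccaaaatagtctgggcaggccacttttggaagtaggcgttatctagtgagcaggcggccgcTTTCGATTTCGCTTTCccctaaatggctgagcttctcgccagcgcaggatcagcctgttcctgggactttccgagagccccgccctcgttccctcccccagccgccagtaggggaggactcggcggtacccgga

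In the 250 bases before the start, CCAAT was found in 5 of the 7 genes with a window (32.0% of all 35116 RefSeq windows), and TGACG in 4 (21.2%). GAAANNGAAA stood in HLA-F, B2M, TAP1, TAP2 and TAPBP, against 3.02% of all windows. HLA-B and HLA-C held GAANNGAAA, as did TAP2, against 6.56% of all windows. These last letters were added to the search after the windows had been read. GGAAGGAA, a pair of the GGAA units to which EWS::FLI1 binds in longer repeats, was in none of the 7 (3.06% of all windows). TAP1 has a further window, not shown, that held none of the searched letters. A gene was counted if any of its windows matched, while the shares are per window. A match of letters is a description and not a site.

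HLA-B, HLA-C, HLA-E, HLA-F, TAP1, TAP2 and TAPBP lie in the MHC region of chromosome 6, B2M on chromosome 15 and NLRC5 on chromosome 16 (GENCODE 44, GRCh38). HLA-C spans chr6:31268749-31272130 on the minus strand, HLA-B chr6:31353872-31367067 on the minus strand, and HLA-E chr6:30489509-30494194 on the plus strand. B2M spans chr15:44711358-44718851 on the plus strand and NLRC5 chr16:56989485-57083531 on the plus strand. The libraries were not stranded, and of the exon bases of HLA-B 47.3% are shared with another annotated gene, as are 28.0% for HLA-F, 21.0% for TAPBP, 19.5% for TAP2 and 14.2% for TAP1. Reads of those bases cannot be given to 1 gene with certainty. Of the 86-base stretches of the heavy chain transcripts, 2.22% (HLA-F) to 10.4% (HLA-C) lay within 2 mismatches of another HLA gene's transcript, with 3.69% for HLA-E and 7.99% for HLA-B.

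The 22 A673 libraries of the count tables held 15734628 to 20663679 reads, the 4 libraries of SK-N-MC and A4573 29322507 to 32261248, and the knockdown libraries 6852340 to 8184632 reads recovered from the deposited values. STAG2 levels, given as CPM (reads of a gene relative to library size, TMM-scaled), were 256.2 to 360.8 in the STAG2-proficient controls of experiments 1 and 2 and 42.44 to 184.2 in STAG2 KO libraries. EZH2 and SUZ12 mRNA were lower in their own KO clones (28.44 to 55.27 and 11.34 to 20.63 CPM) than in every control of experiment 2. STAG1 mRNA was not: 1 of the 3 STAG1 KO libraries, with 61.51 CPM, lay between the controls (57.76 and 69.59 CPM), the others had 15.09 and 33.25 CPM, and the fold change was not called (log2 -0.80, SE 0.51, adjusted p = 0.376, edgeR). Of 10 Ewing sarcoma markers 9 were above 1 CPM in every A673 library, NKX2-2 had at least 25.34 CPM in all 26 libraries, and CD99, the diagnostic surface protein, was listed at 0 in all of them. One STAG2 KO library of experiment 2, clone 5, stood apart from clones 3 and 2 of its group (mean chi-square per gene 113 and 140, against 25.7 between those), and results that rest on it are given with and without it. The 2 WT clone libraries of experiment 1 differed from each other by little more than sampling noise (mean chi-square per gene 1.33, against at least 9.41 for other pairs of a group).

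Read per kilobase of exon, A673 controls held far more light chain than any other member. B2M had 380.0 ± 118.0 CPM per kb (SD, n = 8), HLA-C 29.3 ± 7.83 and HLA-E 23.45 ± 9.41. TAPBP (11.35 ± 4.63) and TAP2 (3.676 ± 1.11) followed. HLA-B (1.375 ± 0.881) and TAP1 (1.348 ± 0.871) did not differ beyond their spread, nor did HLA-C and HLA-E. NLRC5, with 0.2064 ± 0.0955 CPM per kb, and HLA-F, with counts in only 2 of the 8 control libraries, were at the bottom. Lengths are the union of all annotated exons, which for HLA-B is 4623 bases against 1536 in the transcript compared with the other HLA genes, so its value per kb, and its place in this order, depends on that length.

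**Figure D1:**
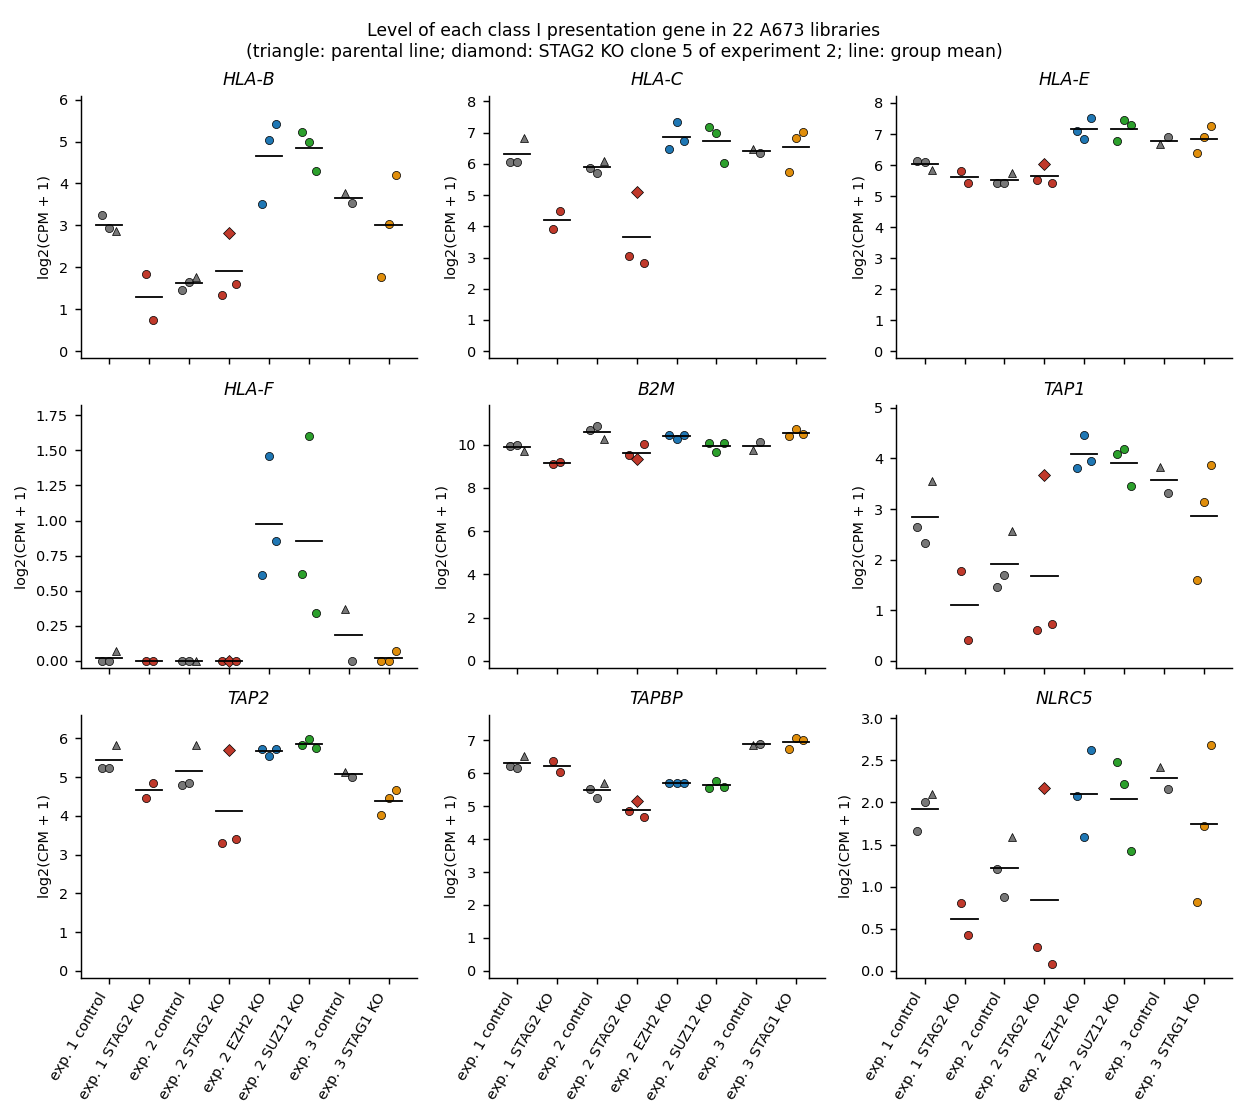
Level of each of the 9 genes as log2(CPM + 1) in the 22 A673 libraries of experiments 1 to 3, by group (1 point per library; line, group mean; triangle, parental line; diamond, STAG2 KO clone 5). HLA-C and B2M were lower in STAG2 KO libraries than in every control of the same experiment, HLA-B, HLA-E and HLA-F were higher in EZH2 and SUZ12 KO libraries, and clone 5 sat above the other STAG2 KO libraries for TAP1, TAP2 and NLRC5.

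In STAG2 KO cells the classical heavy chain HLA-C and the light chain B2M were lower. HLA-C, which presents peptides to T cells and is a ligand of NK cell receptors, had 65.33, 66.1 and 112.4 CPM in the controls of experiment 1 and 13.95 and 21.61 CPM in its STAG2 KO libraries. In experiment 2 the controls had 57.12, 51.2 and 67.3 CPM, and the STAG2 KO libraries 7.236 (clone 3), 32.92 (clone 5) and 6.112 CPM (clone 2). All 5 KO libraries were below all 6 controls. The log2 fold change was -1.99 (SE 0.42, adjusted p = 0.0108, edgeR's quasi-likelihood test, fitted with a term for experiment). B2M, the chain shared by all class I molecules, had 971.7, 1021 and 835.5 CPM in controls and 557.8 and 579.5 CPM in STAG2 KO libraries of experiment 1. In experiment 2 it had 1630, 1848 and 1222 CPM in controls, against 732.5, 638.7 and 1057 CPM in clones 3, 5 and 2. The groups did not overlap within either experiment, and the log2 fold change was -0.81 (SE 0.15, adjusted p = 0.00587, edgeR). The share called among 13574 tested genes was 5.76% lower and 6.67% higher. Of the class I genes 2 of the 8 tested were called lower and 0 higher, with a median log2 fold change of -0.61 against 0.04 for all genes tested. With experiment 2 alone the folds of HLA-C and B2M were -1.85 and -0.91 and none of the 8 genes was called (adjusted p = 0.142 and 0.0862, edgeR). In bulk RNA, fewer cells of a kind and less RNA per cell cannot be told apart, and no source states that the libraries of a group came from separate cultures beyond being separate clones, so p-values measure the spread between these libraries.

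The transporter genes and NLRC5 were low in most STAG2 KO libraries and not in clone 5 of experiment 2. NLRC5, the activator of class I promoters, had 2.16, 3.021 and 3.286 CPM in controls of experiment 1 against 0.7528 and 0.3395 CPM in STAG2 KO. In experiment 2 the controls had 1.311, 0.8341 and 2.007 CPM, clones 3 and 2 had 0.2113 and 0.05556 CPM, and clone 5 had 3.518 CPM. Clone 5 was above every control, and the other 4 KO libraries below every control of their experiment. The STAG2 KO library of experiment 1 with 0.7528 CPM also bears the number 5 in the deposited counts. The titles of that experiment number its clones otherwise, so whether it is the same clone is not known. The 5 KO libraries may thus hold fewer than 5 clones, and the high values belong to 1 library. TAP1 had 5.254, 4.029 and 10.69 CPM in controls and 2.432 and 0.3395 CPM in STAG2 KO libraries of experiment 1. In experiment 2, TAP1 had 1.767, 2.246 and 4.962 CPM in controls, 0.5282 and 0.6668 CPM in clones 3 and 2, and 11.76 CPM in clone 5. TAP2, the partner of TAP1 in the transporter, had 26.91 to 55.53 CPM in controls of experiment 2, 8.874 and 9.501 CPM in clones 3 and 2, and 50.82 CPM in clone 5. With all libraries, none of the 3 was called: the log2 fold changes were -0.98 (SE 0.89, adjusted p = 0.537) for NLRC5, -0.53 (SE 1.01, adjusted p = 0.799) for TAP1 and -0.68 (SE 0.45, adjusted p = 0.371) for TAP2 (edgeR). Without clone 5 all 3 were called lower, by edgeR, at -2.68 (adjusted p = 0.00121), -2.26 (adjusted p = 0.00998) and -1.34 (adjusted p = 0.00678). HLA-C then had a fold of -2.60 and B2M of -0.74, which made 5 class I genes called lower of 8, while the genes called in all rose from 1687 to 4048.

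The remaining heavy chains and tapasin were not called. HLA-B, the other classical heavy chain, had 6.311 to 8.465 CPM in controls and 2.606 and 0.6789 CPM in STAG2 KO libraries of experiment 1. In experiment 2 the controls already had 1.767, 2.117 and 2.398 CPM, and clones 3, 5 and 2 had 1.532, 6.038 and 2.056 CPM. In experiment 2 clone 5 alone was above the controls, and the others lay below or among them. The log2 fold change was -2.11 (adjusted p = 0.0437) in experiment 1 alone, 0.68 (adjusted p = 0.497) in experiment 2 alone and -0.46 (SE 0.66, adjusted p = 0.722, edgeR) together, and without clone 5 it was -1.11 together (adjusted p = 0.0893, edgeR). HLA-E, the ligand of inhibitory NK receptors, ranged from 41.62 to 64.21 CPM over the 5 KO libraries and from 41.67 to 69.3 CPM over the 6 controls. Its log2 difference was -0.06, with an approximate 95% interval of -0.40 to 0.28. That interval takes the SE by the normal distribution, which is narrow for so few libraries. TAPBP had a log2 fold change of -0.34 (SE 0.15, adjusted p = 0.173, edgeR). HLA-F had 1 read in 1 control and 0 in the other 10 libraries and could not be tested. The 10 Ewing sarcoma markers summed to 2606 to 3402 CPM in STAG2 KO against 3871 to 4411 CPM in experiment 1 and 2484 to 2564 CPM against 3354 to 3565 CPM in experiment 2. Most of that sum is CCND1, which with JAK1 and PRKCB was lower in every KO library than in every control of its experiment, while NR0B1 was higher in experiment 1 (175.4 and 197.3 against 80.78 to 85.88 CPM), as were NKX2-2 and LIPI. The part of these markers in the results was not tested.

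After knockdown of STAG2 by siRNA, HLA-C and B2M were lower as well. Normalized reads of HLA-C were 601.4, 508.8 and 519.8 in the controls and 372.8, 362.5 and 321.7 after siSTAG2, with no overlap (log2 -0.62, SE 0.08, adjusted p = 3.54e-06, limma on log2(value + 1)). B2M had 10390, 9186 and 11010 normalized reads in controls and 6599, 6469 and 6691 after siSTAG2 (log2 -0.63, SE 0.06, adjusted p = 1.77e-08, limma). TAPBP, at 805.4, 814.8 and 770.9 against 686.8, 685.2 and 622.1, fell by 0.26 on the log2 scale (adjusted p = 0.00636, limma). All 3 genes were lower in every siSTAG2 library than in every control. The share of all genes that separate in this way was not counted, here or in the other comparisons.

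HLA-E had 224, 241.1 and 227.1 normalized reads in controls and 195.3, 191.9 and 187.4 after siSTAG2, a fall of 0.27 that passed narrowly (adjusted p = 0.0495, limma). TAP2 moved the other way, from 154.4, 169.3 and 168.8 to 209.7, 210.5 and 199 normalized reads (log2 0.33, adjusted p = 0.0223, limma). It was thus higher in each knockdown library than in each control, and in the KO clones it was not called. HLA-B (17.71 to 31.25 against 17.39 to 29.67 normalized reads) and TAP1 (25 to 31.49 against 18.86 to 32.84) overlapped between the groups. NLRC5, with 6.251 to 12.39 and 3.864 to 10.2 normalized reads, was below the minimum mean of 10, and HLA-F was listed at 0 in all 6 libraries. In all, 4 of 7 tested members were called lower and 1 higher, beside 11% lower and 9.54% higher among the 12060 genes tested. STAG2 itself fell from 992 to 1090 normalized reads to 144.2 to 179.9. The call of HLA-E held in 3 of 12 alternative settings and that of TAP2 in 9 of 12, while HLA-C and B2M were called in all 12.

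**Figure D2:**
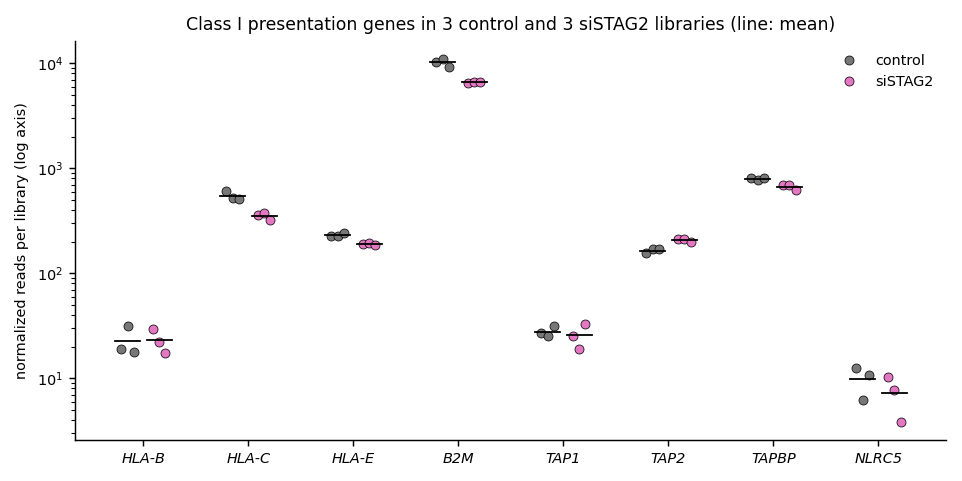
Normalized reads (log axis) of 8 class I presentation genes in 3 control and 3 siSTAG2 libraries of A673 cells (1 point per library; line, mean; HLA-F, at 0, is not drawn). HLA-C, HLA-E, B2M and TAPBP lay lower in every siSTAG2 library and TAP2 higher, while HLA-B, TAP1 and NLRC5 overlapped. The share of all genes that separate in this way was not counted.

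In PRC2 KO cells 3 heavy chains were higher, HLA-B, HLA-E and HLA-F. HLA-B had 1.767, 2.117 and 2.398 CPM in the controls of experiment 2, 10.41, 31.62 and 41.56 CPM in EZH2 KO clones and 36.31, 30.94 and 18.53 CPM in SUZ12 KO clones. Every KO library was above every control, with log2 fold changes of 3.82 (SE 0.61, adjusted p = 0.00183, edgeR) for EZH2 KO and 3.84 (SE 0.61, adjusted p = 0.00124, edgeR) for SUZ12 KO. HLA-E rose from 41.67, 42.28 and 52.86 CPM to 137.4, 112.7 and 182.9 CPM in EZH2 KO and 107.8, 173.3 and 155.1 CPM in SUZ12 KO. Its log2 fold changes were 1.75 (SE 0.24, adjusted p = 0.000875, edgeR) and 1.74 (SE 0.24, adjusted p = 0.000609, edgeR). HLA-F, a nonclassical heavy chain, had 0 reads in each control and 11, 32 and 17 reads in EZH2 KO and 11, 45 and 5 reads in SUZ12 KO libraries. Against a floor of 3 counts per library, 0.177 CPM, its mean was at least 5.82-fold higher in EZH2 KO and at least 5.37-fold higher in SUZ12 KO. HLA-F passed the filter on low counts only through the libraries in which it was high, so its p is not given as a test, and with only controls and SUZ12 KO in the fit it was not tested. Of the other 8 class I genes, 2 were called higher and 0 lower in each KO. The background was 12% of 15130 genes higher and 3.69% lower in EZH2 KO, and 14.7% higher and 5.87% lower in SUZ12 KO. The 2 comparisons share their 3 controls.

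HLA-C, TAP1 and NLRC5 lay above every control in EZH2 KO cells and were not called. In SUZ12 KO cells TAP1 lay above and B2M below every control, also without a call. The share of all genes that separate in this way was not counted. HLA-C had 87.91, 162.6 and 105.6 CPM in EZH2 KO and 142.9, 125.4 and 63.95 CPM in SUZ12 KO, beside 51.2 to 67.3 CPM in controls (adjusted p = 0.193 and 0.222, edgeR). TAP1 had 13.06, 21.19 and 14.46 CPM in EZH2 KO and 16.01, 17.24 and 9.993 CPM in SUZ12 KO, beside 1.767 to 4.962 CPM in controls. Its log2 fold changes were 2.52 (SE 0.94, adjusted p = 0.0925) and 2.33 (SE 0.93, adjusted p = 0.0995, edgeR) in the fit over all 12 libraries of experiment 2, which includes STAG2 KO clone 5. When only the controls and the KO in question were fitted, HLA-C and TAP1 were called higher in both KOs, B2M was called lower in SUZ12 KO (log2 -0.57, adjusted p = 0.0369, edgeR), and HLA-F was no longer tested in SUZ12 KO. The genes called in all were then 3429 in EZH2 KO and 4378 in SUZ12 KO, against 2377 and 3112. B2M had 1379, 1224 and 1402 CPM in EZH2 KO and 1065, 817.2 and 1085 CPM in SUZ12 KO, beside 1222 to 1848 CPM in controls, and was called in neither by the fit over all libraries (log2 -0.14 and -0.59, adjusted p = 0.671 and 0.0667, edgeR). The light chain was thus not called higher in either KO. TAP2, TAPBP and NLRC5 had log2 fold changes of 0.53, 0.28 and 1.40 in EZH2 KO and 0.70, 0.21 and 1.32 in SUZ12 KO, none called. NLRC5 had 2.021 to 5.153 CPM in EZH2 KO and 1.674 to 4.588 CPM in SUZ12 KO, beside 0.8341 to 2.007 CPM in controls.

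Markers of other cell types were looked at beside these rises. The summed level of blood cell markers over 10 genes was 3.363 to 6.635 CPM in controls of experiment 2, 20.48 to 26 CPM in EZH2 KO and 13.81 to 23.68 CPM in SUZ12 KO libraries. Most of that was ITGAM, an integrin gene, with 9.885 to 19.83 CPM in the 6 PRC2 KO libraries and at most 0.6133 CPM in controls. CD14 was also higher in all 6 PRC2 KO libraries (0.4294 to 0.7809 CPM) than in controls (0.1925 to 0.342 CPM), as was HLA-DRA (at most 0.7259 CPM, 0 in controls), and CD68 in EZH2 KO only (7.1 to 8.636 against 2.508 to 5.353 CPM). CD3D had at most 3 reads in these libraries and 0 in controls. PTPRC, the defining marker of blood cells, was at 4 counts or fewer in every A673 library, and CD3E and MS4A1 were at 0 in all libraries of experiment 2. Endothelial markers summed to 1.227 to 2.246 CPM in controls and 2.567 to 7.395 CPM in the PRC2 KO libraries, and the part of either list in the results was not tested.

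The PRC2 KOs were compared with each other. Of 15130 genes 0.00661% (1 gene, EZH2) differed between them, with no class I gene among it, and 629 genes, 0 of them class I genes, had an unadjusted p under 0.05 (edgeR). DESeq2 called 22 genes and edgeR without the filter 5, again with no class I gene. Approximate 95% intervals of the difference were -1.05 to 1.01 for HLA-B and -0.45 to 0.46 for HLA-E on the log2 scale. They take the SE by the normal distribution, which is narrow for so few libraries. The interval of HLA-B includes a 2-fold difference, and that of HLA-E does not.

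STAG2 KO and PRC2 KO clones were compared directly within experiment 2. Against EZH2 KO, 5 of 8 genes were called lower in STAG2 KO: HLA-B (log2 -3.13), HLA-C (-2.95), HLA-E (-1.54), B2M (-0.75) and TAPBP (-0.83), with adjusted p = 0.00354, 0.00477, 0.00119, 0.0268 and 0.00472 (edgeR). The call of B2M was lost in 3 of 15 alternative settings, without EZH2 KO clone 1 or 3 or STAG2 KO clone 3 (adjusted p at most 0.0922, edgeR). Against SUZ12 KO, 4 were called lower, the same apart from B2M (log2 -0.30, adjusted p = 0.325, edgeR). HLA-F, which passed the filter through the PRC2 KO libraries, had 0 reads in each STAG2 KO clone and is left out of these counts. No member was called higher in STAG2 KO, and the background was 8.04% higher and 12.4% lower against EZH2 KO and 11.2% higher and 14.5% lower against SUZ12 KO. HLA-C and B2M were low in STAG2 KO relative to controls, while the gaps in HLA-B, HLA-E and HLA-F came with high levels in the PRC2 KO clones. TAPBP had 27.78, 34.76 and 24.56 CPM in STAG2 KO, 50.84 to 51.24 CPM in EZH2 KO and 36.77 to 51.46 CPM in controls. Without clone 5, TAP1, TAP2 and NLRC5 were called lower in addition, both against EZH2 KO (log2 -4.79, -2.48 and -4.65, adjusted p = 0.000125, 0.000177 and 0.00141, edgeR) and against SUZ12 KO (log2 -4.59, -2.64 and -4.57, adjusted p = 0.000122, 0.000103 and 0.00118, edgeR). The genes called in all then rose too, from 3091 to 5285 against EZH2 KO and from 3899 to 6198 against SUZ12 KO.

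**Figure D3:**
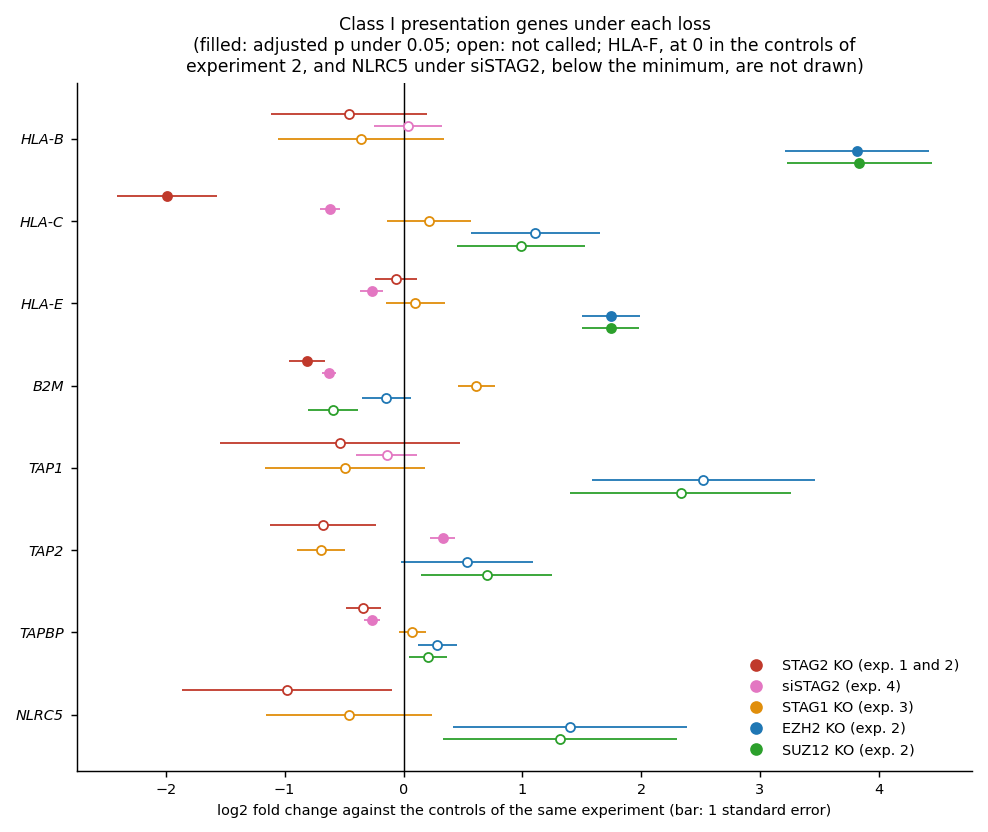
Log2 fold change of 8 class I presentation genes in each loss against controls of the same experiment (point, estimate; bar, 1 standard error; filled, adjusted p under 0.05; HLA-F, at 0 in controls of experiment 2, is not drawn). HLA-C and B2M lay left of 0 in both STAG2 KO and siSTAG2, at -1.99 and -0.62 for HLA-C, and HLA-B lay near 3.8 in both PRC2 KOs.

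No class I gene was called in STAG1 KO cells. HLA-C had 80.25 and 88 CPM in the WT clone and parental controls and 52.04, 113 and 128 CPM in STAG1 KO (log2 0.22, SE 0.36, adjusted p = 0.748, edgeR). B2M had 1105 and 853.8 CPM in controls and 1358, 1696 and 1447 CPM in STAG1 KO, above both controls (log2 0.61, SE 0.16, adjusted p = 0.0808, edgeR). TAP2 had 31.3 and 34.33 CPM in controls and 15.31, 21.07 and 24.47 CPM in STAG1 KO, below both (log2 -0.69, SE 0.20, adjusted p = 0.103, edgeR). These 2 genes had an unadjusted p under 0.05 and were called by DESeq2 (adjusted p = 0.00349 for B2M and 0.0358 for TAP2). HLA-B varied more within STAG1 KO (2.414, 7.189 and 17.35 CPM) than between the groups (controls 10.51 and 12.65 CPM). The library lowest in HLA-B was also the lowest of the 3 in HLA-C, HLA-E, TAP1, TAP2 and NLRC5, and it was the one with STAG1 mRNA at the level of controls. Blood cell markers summed to 9.603 to 17.24 CPM in STAG1 KO and 3.663 to 4.464 CPM in controls, with PTPRC at 1 count or fewer in STAG1 KO, and their part was not tested. Among the 14373 genes tested, 2.77% were called higher and 2.5% lower, and 3578 genes had an unadjusted p under 0.05.

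STAG2 KO and STAG1 KO had different effects on B2M. The log2 effect of STAG2 KO minus that of STAG1 KO was -1.45 (SE 0.27, adjusted p = 0.00494, edgeR), B2M being lower in all 5 STAG2 KO libraries and higher in all 3 STAG1 KO libraries than in controls of their experiment. It was the only member called of 8, beside 5.44% of 15041 genes lower and 3.07% higher. Without the parental control of experiment 3 the difference at B2M was -1.29 and not called (adjusted p = 0.0765, edgeR). For HLA-C the difference was -2.27 (SE 0.72, adjusted p = 0.0673, edgeR), and without the STAG1 KO library that kept STAG1 mRNA, or without clone 5, it was called.

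The other genes of the pathway were taken from lists on peptide supply, loading, transcription factors, class II, interferon response and ligands of NK cells and checkpoints. Their counts are to be read beside the shares called over all genes. In STAG2 KO, where 5.76% of all genes were called lower and 6.67% higher, 4 of 10 tested genes of peptide supply were called lower and 0 higher. ERAP1, an aminopeptidase that trims peptides in the endoplasmic reticulum, fell by 0.97 (adjusted p = 0.000967), ERAP2, its relative, by 1.77 (adjusted p = 0.00842), and the proteasome activator genes PSME1 and PSME2 by 1.06 and 0.60 on the log2 scale (adjusted p = 0.0184 and 0.0368, edgeR). ERAP1 had 31.96 to 60.43 CPM in the KO libraries and 74.43 to 107.8 CPM in controls, clone 5 among the low ones at 41.85 CPM. PSME1 had 29.89 to 44.3 CPM in 4 KO libraries and 80.17 CPM in clone 5, with 86.04 to 106.8 CPM in controls. TAPBPL, the tapasin-like peptide editor, fell by 2.88 (SE 0.54, adjusted p = 0.00591, edgeR), from 2.732 to 6.363 CPM in controls to 0.1132 to 1.47 CPM, and it was 1 of 2 loading chaperones called lower of 8.

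Of 17 tested transcription factors, IRF1 and IRF2, the interferon regulatory factors, were the 2 called lower in STAG2 KO, beside 5.76% of all genes (log2 -1.16 and -1.18, adjusted p = 0.0445 and 0.014, edgeR). IRF2 had 18.29 to 26.44 CPM in controls of experiments 1 and 2 and 4.49 to 13.91 CPM in KO libraries, clone 5 being the highest of these. RFX, NFY and CREB family genes were not called. Of 23 genes of the interferon response 6 were called lower and 1 higher (5.76% and 6.67% of all genes). Among the 6 was OAS3, a sensor of double-stranded RNA (log2 -3.55, adjusted p = 0.00917, edgeR). OAS1, a related sensor, is also counted in the 6. It had 0 to 19 reads in the 5 KO libraries and passed the filter through other libraries, so its p is not given as a test. Of 11 tested ligands of NK cells and checkpoints 4 were called higher and 0 lower (all genes 6.67% and 5.76%), among them 3 ligands of the activating NK receptor NKG2D, RAET1E (log2 3.44), ULBP2 (1.94) and MICB (1.21) (adjusted p = 0.00781, 0.00156 and 0.0425, edgeR). ULBP2 had 0.513 to 1.095 CPM in controls and 2.166 to 3.308 CPM in all 5 KO libraries. RAET1E had 2.2 to 12.11 CPM in 4 KO libraries and 0.63 CPM in clone 5, within the 0.106 to 1.227 CPM of controls. The lists' medians were -0.43 for peptide supply, -0.23 for loading chaperones, 0.05 for transcription factors, -0.84 for the interferon response and 0.40 for the ligands, beside 0.04 over all genes tested.

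After siSTAG2, several of these genes moved the same way in their own comparison. PSME1 and PSME2 fell by 0.55 and 0.34, TAPBPL by 1.15, IRF1 by 0.97 and IRF2 by 0.66 on the log2 scale, and OAS1 and OAS3 by 1.10 and 0.75 (adjusted p between 2.73e-07 and 0.014, limma). The immunoproteasome subunit gene PSMB8, next to the TAP genes on chromosome 6, fell by 0.57 (adjusted p = 0.0385, limma). ERAP1 and ERAP2, lower in STAG2 KO, were not among the genes called after siSTAG2. Beside 11% lower and 9.54% higher over all genes, calls were 3 lower and 1 higher of 8 in peptide supply, 4 lower and 0 higher of 8 loading chaperones, 2 lower and 1 higher of 15 transcription factors, which is near the share of all genes, and 4 lower and 1 higher of 17 interferon response genes. RAET1E rose by 2.64 (adjusted p = 7.77e-05, limma) and was the 1 ligand called of 8.

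In PRC2 KO cells, reads of several class II genes appeared that were at or near 0 in controls. Such genes passed the filter on low counts only through the libraries in which they are high, so their values are given with no test and no count of calls. HLA-DRB1, a class II beta chain, had 0 reads in controls, 45, 153 and 63 in EZH2 KO and 49, 146 and 54 in SUZ12 KO libraries, at least 25.5-fold and 22.5-fold higher than the floor. HLA-DMB, which encodes a chain of the class II peptide editor, had 2 to 3 reads in controls and 23 to 129 in the 6 KO libraries. HLA-DPB1 had 0.399 to 1.059 CPM in controls and 2.348 to 7.531 CPM in KO libraries with no overlap. HLA-DOA had 0 or 1 read in controls and 13 to 150 in KO libraries. CIITA, the class II counterpart of NLRC5, had 0 reads in all 12 libraries of experiment 2. Reads between related HLA-DRB genes may have been split or shared.

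The interferon response had 3 genes called higher and 1 lower of 26 in each KO, a share of higher calls no larger than that of all genes (12% in EZH2 KO and 14.7% in SUZ12 KO). Among them GBP2, a guanylate-binding protein, had 5 to 26 reads in controls and at least 134 in KO libraries, and IFIH1, an RNA sensor, had 3 to 10 and 88 to 227 reads. Both passed the filter through libraries other than controls, as did ULBP2. Their calls are thus not given as tests, and nothing is read from the counts of higher calls that include them. ULBP1 rose in both KOs (log2 3.64 in EZH2 KO and 3.12 in SUZ12 KO) and was, with ULBP2, among 3 and 2 of 11 ligands called higher and 0 lower, beside the same 12% and 14.7% of all genes. Peptide supply had 1 and 2 genes called lower of 10 and 0 higher (lower over all genes 3.69% and 5.87%), with ERAP1 at -0.98 and -1.05 (adjusted p = 0.00203 and 0.000944, edgeR), close to its fold in STAG2 KO, with which these comparisons share controls of experiment 2. Loading chaperones had 1 and 2 called lower of 8, and transcription factors 1 and 2 called lower of 17, NFKB1 in both.

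In STAG1 KO, the chaperone genes CALR and HSPA5 were called higher (log2 0.90 and 0.74, adjusted p = 0.0239 and 0.029, edgeR), with CALR at 577 and 563.1 CPM in controls and 948.1 to 1157 CPM in KO libraries. OAS1 fell by 1.51 on the log2 scale (adjusted p = 0.0386, edgeR). No gene of peptide supply or class II was called, of 11 and 2 tested.

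**Figure D4:**
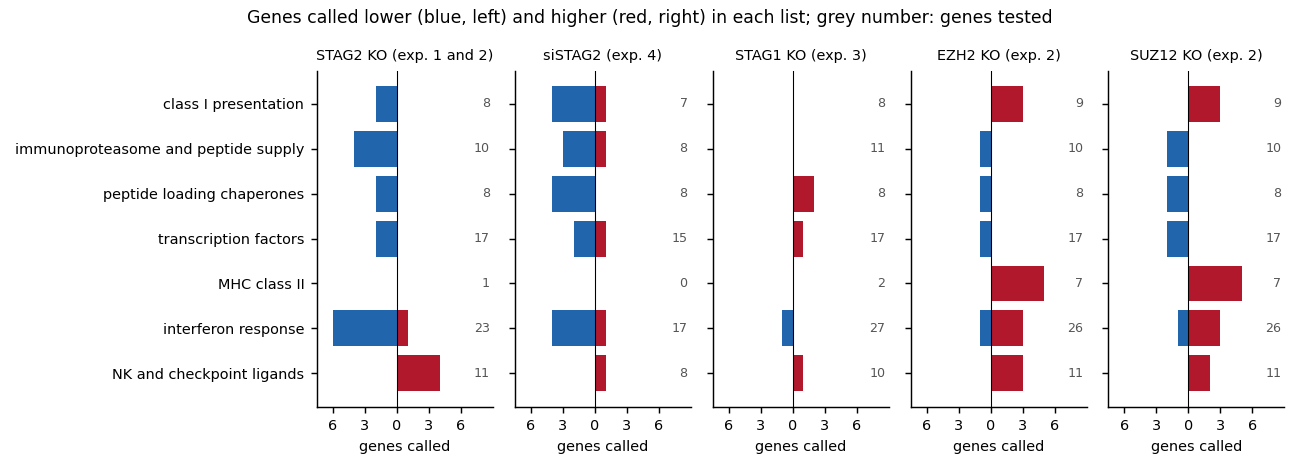
Number of genes called lower (left of 0) and higher (right of 0) in each list, for each loss against its controls, with the number of genes tested in grey. Interferon response genes were called mostly lower in STAG2 KO (6 against 1), and no class I presentation gene in STAG1 KO. The class II calls in PRC2 KO, and HLA-F among the class I genes, are of genes that passed the filter only through PRC2 KO libraries, so nothing is read from them. OAS1, counted in the 6, passed it through libraries other than STAG2 KO. In PRC2 KO, GBP2, IFIH1 and ULBP2 passed it through libraries other than controls. Nothing is read from these calls either.

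Across the 22 A673 libraries, the class I genes varied together apart from B2M. Pearson's r of log2 CPM, centred within each experiment, was 0.92 between TAP1 and NLRC5, 0.90 between HLA-B and HLA-E and 0.86 between HLA-C and NLRC5. B2M had r from -0.08 (HLA-F) to 0.43 (HLA-C) with the others. The genes whose levels followed the mean of the 9 most closely, of 13398 ranked, were UBE2L6 (r = 0.967), which encodes the conjugating enzyme of the interferon-induced modifier ISG15, C1orf74 (0.955), PGGHG (0.952), MLYCD (0.944) and G0S2 (0.939). UBE2L6 had 17.46 to 19.35 CPM in controls and 3.564 to 4.459 CPM in STAG2 KO of experiment 1, and 6.385 to 7.137 CPM in controls, 20.1 to 33.78 CPM in EZH2 KO and 20.36 to 31.94 CPM in SUZ12 KO of experiment 2. Clone 5 also stood apart in the mean of the 9 (log2, centred per gene and experiment), at -0.16 against -1.84 and -1.86 in clones 3 and 2, as in UBE2L6 (10.87 CPM, against 1.722 and 3.38 CPM). These libraries share experiments and genotypes, and the correlations are descriptions.

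In A4573 cells the library without STAG2 held less of 8 of the 9 class I mRNAs than the KI library, each by more than 2-fold, while SK-N-MC cells showed no such shift. The pairs have 1 library per state, so there is no replicate check and no test, and the intervals here cover counting error only. HLA-C had 129.9 CPM in A4573 WT and 389.7 CPM in A4573 STAG2 KI (log2 ratio -1.61, 95% interval -1.64 to -1.53). HLA-B had 82.52 and 218.8 CPM (-1.43), HLA-E 48.03 and 115.4 (-1.29), and HLA-F 2.29 and 5.38 (-1.24). TAP1 had 6.373 and 16.01 CPM (-1.35), TAP2 38.31 and 93.43 (-1.31), TAPBP 7.535 and 15.22 (-1.04) and NLRC5 0.6639 and 1.433 (-1.07). B2M was the exception, with 242.3 and 209.8 CPM (0.18, interval 0.16 to 0.26). Of 16124 genes compared, 14.5% were over 2-fold lower without STAG2 and 7.49% over 2-fold higher. Interferon response genes lay lower with them: 18 of 24 were over 2-fold lower and all 24 had a ratio below 0, with a median of -1.58 against -0.03 for all genes. EZH2 was higher in A4573 WT than in KI (119.8 and 42.85 CPM), and STAG2 mRNA was 34.12 and 86.91 CPM.

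In SK-N-MC cells, B2M and HLA-E were lower in the STAG2 KO library, B2M at 504.4 against 950.4 CPM (log2 ratio -0.90, interval -0.94 to -0.89) and HLA-E at 72.59 against 135.2 CPM (-0.89). HLA-C had 169.3 and 166.9 CPM (0.03, interval -0.03 to 0.08). HLA-B, TAP1, NLRC5 and TAP2 had ratios of 0.73, 0.60, 0.64 and 0.34, HLA-F of 0.29 and TAPBP of -0.41. None of the 9 passed 2-fold, where 10.3% of 16413 genes were over 2-fold higher and 11.3% lower. STAG2 mRNA was 184.2 CPM in the KO library and 292.8 CPM in WT. The blood marker PTPRC had 56.59 CPM (1776 reads) in the SK-N-MC STAG2 KO library and 2.886 CPM in SK-N-MC WT, scaled over all 26 libraries, with CD3D and MS4A1 at 0 in both, and its part in these ratios was not tested. B2M was thus lower without STAG2 in A673 and SK-N-MC and not in A4573, and HLA-C was lower in A673 and A4573 and not in SK-N-MC.

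**Figure D5:**
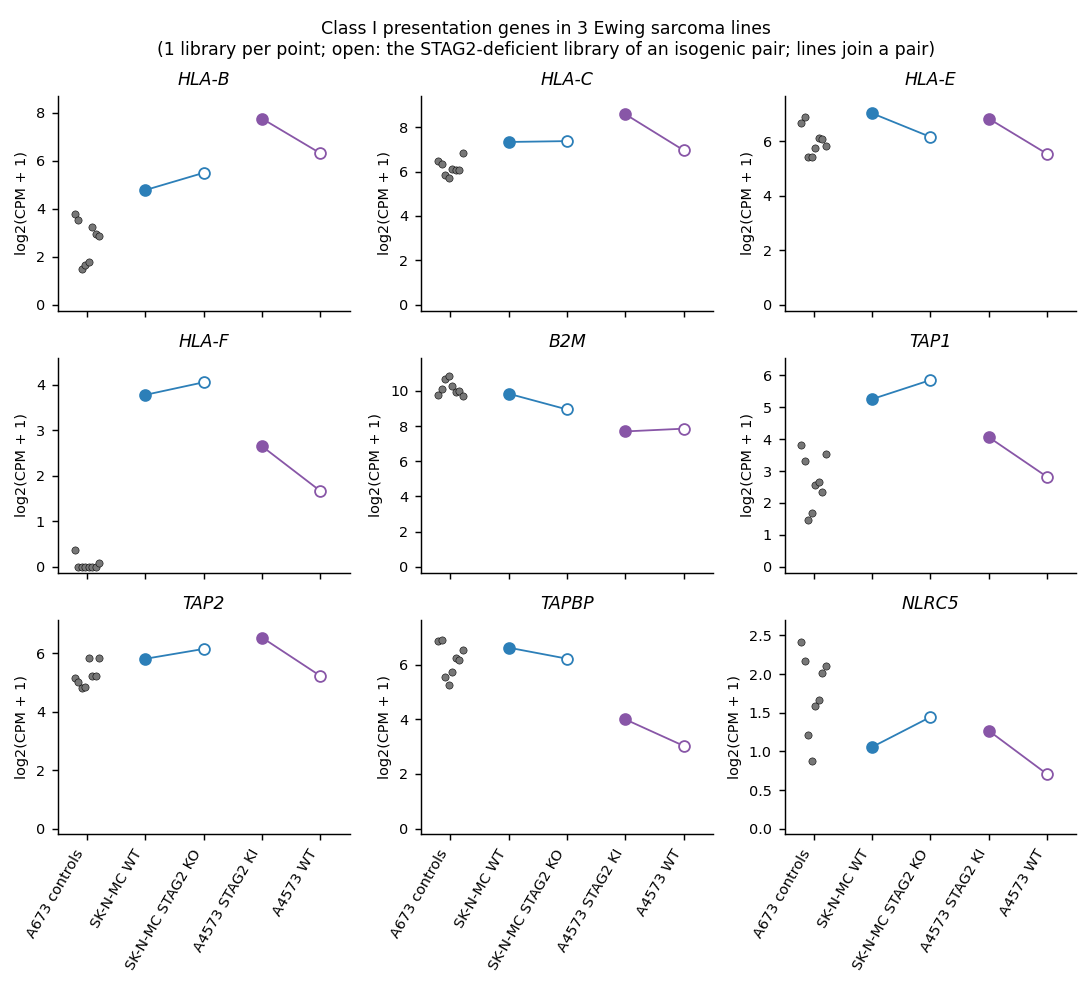
Level of the 9 class I presentation genes, as log2(CPM + 1), in 8 A673 control libraries (grey) and in the 4 libraries of SK-N-MC and A4573 (filled, STAG2-proficient; open, STAG2-deficient; a line joins the 2 libraries of a pair). In A4573 all genes but B2M were lower in the deficient library, and HLA-F was far below both other lines in A673.

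Between the lines, A673 controls and the libraries labelled WT differed most at HLA-F, TAPBP and HLA-B. HLA-F had 0 to 0.293 CPM in the 8 A673 controls, 12.74 CPM in SK-N-MC WT and 2.169 CPM in A4573 WT. HLA-B had 1.767 to 12.65 CPM in A673 controls, 26.38 CPM in SK-N-MC and 78.16 CPM in A4573, which was the highest of the 3 lines in HLA-B. TAPBP had 36.77 to 117.1 CPM in A673, 97.08 CPM in SK-N-MC and 7.137 CPM in A4573, a log2 difference of -3.27 from the A673 mean. B2M had 835.5 to 1848 CPM in A673, 913 CPM in SK-N-MC and 229.5 CPM in A4573. SK-N-MC was over 2-fold higher than the A673 mean at HLA-B, HLA-C, HLA-E, HLA-F and TAP1 and over 2-fold lower at NLRC5, beside 19.7% of 18430 genes higher and 16.5% lower. A4573 was over 2-fold higher at HLA-B and HLA-F and over 2-fold lower at B2M, TAPBP and NLRC5, beside 19.7% higher and 17.8% lower. The A4573 library compared here lacks STAG2 and the others do not. The lines carry HLA alleles that differ from the reference to unlike degrees, and for the heavy chains a level difference between lines and a difference in how reads align cannot be told apart.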

How the data were processed

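RNA-seq was measured in A673, SK-N-MC and A4573 cells, with single-end reads of 86 nt from oligo-dT libraries that do not mark strand. Per the labels, the authors aligned the reads to hg38 with TopHat2 2.0.0 (Bowtie 0.12.7, SAMtools 0.1.16). The deposited count tables hold whole-number read counts per gene symbol, without normalization, and the counting program and annotation are not given in the sources used here. The knockdown table was deposited as a normalized signal per Ensembl gene, which the authors scaled library by library. Its steps gave whole reads for 100% of the values, within a tolerance of 0.01. No column of values per sample was left unused (0 such columns).

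Counts were tested over all genes of a table with edgeR 4.0.16 under R 4.3.3, using TMM scaling, the default filterByExpr filter and the quasi-likelihood test. The fit for STAG2 KO took experiments 1 and 2 together and had a term for experiment. The fit for PRC2 used the 12 libraries of experiment 2, and the fit for STAG1 KO used experiment 3. Knockdown values were tested with limma 3.58.1 on log2(value + 1) for genes with a mean of at least 10, a scale on which folds of low genes are understated. A gene was called where its p, adjusted by Benjamini-Hochberg, was under 0.05. CPM are scaled over the 26 count libraries, except in the comparison of the isogenic pairs, which scaled its own 4 libraries and took log2 ratios with a prior count of 2. Coordinates and exon lengths are from GENCODE 44. Folds against libraries at or under 3 counts are lower bounds against that floor, which covers counting error only.

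Groups follow the genotypes in the labels. The STAG2 KO libraries of experiment 1 and the STAG1 KO libraries were matched to their group and not to a numbered clone. The members and lists were chosen with earlier results of these data known. Beside the 9 members and the 4 targeted genes, the text names per list and comparison at most 4 called genes, those of largest fold with a mean of at least 1 CPM or 10 normalized reads, and the 5 genes most like the mean of the members. Scripts were tested on simulated data. Alternatives were DESeq2 1.42.0 and its size factors, no filter, single experiments, other control sets, pseudocounts and minimums, edgeR on recovered reads, a block on replicate number, and each library left out once.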

Additional observations from a re-analysis of the deposited data

Results flagged for a closer look

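Single libraries lay far from the rest of their group, by the gap to the nearest library as a share of the group's range, in 4 of 17 groups of libraries compared, where chance flags about 1 in 20. Among the 6 STAG2-proficient controls of experiments 1 and 2, the parental library of experiment 1 had 112.4 CPM of HLA-C, above the next control at 67.3 CPM. The same library had 0.05215 CPM of HLA-F, which is 1 read against 0 in the others. Among the 5 STAG2 KO libraries, clone 5 of experiment 2 had 11.76 CPM of TAP1 (next 2.432 CPM) and 3.518 CPM of NLRC5 (next 0.7528 CPM).

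The effect of STAG2 KO on B2M differed from that of STAG1 KO by -1.45 on the log2 scale (adjusted p = 0.00494, edgeR), by a test of the difference itself, and not without the parental control of experiment 3 (-1.29, adjusted p = 0.0765, edgeR).

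In the isogenic pairs 6 genes lay on opposite sides of 0, as log2 ratios of the STAG2-deficient to the proficient library, and so did HLA-C by its estimate, though its counting interval in SK-N-MC (-0.03 to 0.08) includes 0. The differences between the pairs were not tested, since each pair has 1 library per state. In SK-N-MC and A4573 the ratios were 0.73 and -1.43 for HLA-B, 0.03 and -1.61 for HLA-C, and 0.29 and -1.24 for HLA-F. They were 0.6 and -1.35 for TAP1, 0.34 and -1.31 for TAP2, 0.64 and -1.07 for NLRC5, and -0.9 and 0.18 for B2M, which was the 1 gene of these with the lower value in SK-N-MC.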

How the results depend on the processing

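Of the fold changes of members recomputed with another test, scaling, filter or set of samples, 293 kept their direction and side of the threshold, 12 became called, 7 lost their call and 5 changed direction. Of the members, 4 were called in STAG2 KO with experiment 1 alone, 0 with experiment 2 alone and 1 without a term for experiment, against 2. With experiment 2 alone the log2 fold changes of HLA-B, HLA-E and TAP1 turned to 0.683, 0.192 and 0.613. With only controls and the KO in question in the fit, 5 members were called in EZH2 KO and 5 in SUZ12 KO, against 3 with HLA-F counted, which was not tested in SUZ12 KO there. The genes called in all were 3429 and 4378 in these fits, against 2377 and 3112. DESeq2 called 2 members in STAG1 KO, against 0, and 2 in the difference between STAG2 KO and STAG1 KO, against 1. The difference in HLA-E between EZH2 KO and SUZ12 KO turned to -0.026 with DESeq2 and -0.024 with its size factors, and that in TAP2 between A4573 and A673 to 0.006 with library size only. The causes were not tested.

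Leaving out 1 library moved the members called from 2 to 5 in STAG2 KO, 2 to 5 in EZH2 KO, 3 to 7 in SUZ12 KO, 5 to 9 in STAG2 KO against EZH2 KO, 5 to 8 in STAG2 KO against SUZ12 KO, 0 to 1 in STAG1 KO, 0 to 2 in the difference between STAG2 KO and STAG1 KO, and 3 to 4 after siSTAG2. The counts in PRC2 KO and against it include HLA-F. The top counts in STAG2, EZH2 and SUZ12 KO came without clone 5, the low one in EZH2 KO (HLA-F lost) without a control of experiment 2, and the 1 in STAG1 KO (HLA-C) without the library that kept STAG1 mRNA. Without clone 5 the genes called in all were 4048, 3885 and 4797 in STAG2, EZH2 and SUZ12 KO, against 1687, 2377 and 3112. Directions changed for HLA-B (-1.112 to 0.094), HLA-E (-0.219 to 0.068) and TAP1 (-2.259 to 0.05) in STAG2 KO. In EZH2 KO against SUZ12 KO they changed for HLA-B (-0.415 to 0.377), HLA-C (-0.185 to 0.346), HLA-E (-0.196 to 0.147), HLA-F (-0.498 to 1.345), TAP1 (-0.058 to 0.338) and NLRC5 (-0.313 to 0.386). In STAG1 KO they changed for HLA-B (-1.258 to 0.093), HLA-C (-0.023 to 0.528) and HLA-E (-0.121 to 0.31). In the difference between STAG2 KO and STAG1 KO they changed for HLA-B (-1.034 to 0.496), TAP1 (-1.806 to 0.281), TAP2 (-0.725 to 0.175) and NLRC5 (-2.382 to 0.075), and after siSTAG2 for HLA-B (-0.153 to 0.282) and TAP1 (-0.331 to 0.054). None of these fold changes was called with all libraries.

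A block on replicate number left the members called after siSTAG2 at 5 (2881 genes in all, against 2476). Same-numbered knockdown libraries did not deviate together (correlations of 0.026, 0.037 and 0.004), so the samples share only a number. In the other comparisons the numbers name clones. Depth limits the low genes: HLA-F and NLRC5 rest on few reads in most A673 libraries, and no fold was read for HLA-F in STAG2 KO.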
